A study of Homo sapiens with 12 samples.

Results

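Upstream open reading frames (uORFs) that begin at a codon other than ATG were taken from a table of ORFs called on ribosome footprints: 11032 of its 149028 ORFs, in 4302 genes, were of type uORF with such a near-cognate start codon. They were split into 2515 CTG, 1683 GTG and 6834 uORFs with 7 other start codons, of which AGG (1656) and TTG (1236) were the most frequent. Called ORFs overlap, so each codon was assigned to 1 ORF only, which kept 8936 near-cognate uORFs (2019 CTG, 1347 GTG, 5570 others) of 4114 genes. A filter on low values then left 1788 for testing (390 CTG, 296 GTG, 1102 others), or 20.0% of those kept. The same table holds 1655 uORFs with an ATG start (1350 kept, 312 tested), which serve as a comparison.

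The footprints came from HEK293 cells, an established human embryonic kidney line. Cells were harvested in log phase (DMEM with FBS), after 2 h in medium lacking serum, or after 1 h of amino acid starvation in EBSS supplemented with vitamins and FBS. Cycloheximide was present at lysis, and footprints of 17 to 34 nt were taken from 2 gradient pools, monosomes (a single ribosome on an mRNA) and polysomes (several). Each of the 6 groups of condition and fraction has 2 libraries, with the letters A and B, and no label says whether these are separate cultures, so p-values measure only the spread between these libraries. Since footprints depend on how much of an mRNA is present as well as on its translation, and mRNA abundance was not analysed here, fewer transcripts and less translation cannot be told apart. Coding ORFs were found for 5 of 8 HEK293 markers. NEFM, NEFL and VIM had 26229, 9725 and 2360 footprints over 12 libraries, but KRT8 and SALL1 only 19.2 and 39.8. Of 9 genes that mark other cell types, only COL1A1 (51.8) and HBA1 (15.2) had one, at the level of KRT8 and SALL1.

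A uORF lies in the leader of an mRNA, before the main coding sequence, and a ribosome that translates it often does not go on to the main start. Initiation normally takes place at ATG, but codons that differ from it at a single base, CTG and GTG among them, can also be used, usually less efficiently and with a stronger dependence on the bases around them. A purine at position -3 (counted from the first base of the start codon) and a G at position +4 are the best known favourable neighbours. Initiation factors such as eIF1 and eIF5 set how strictly these codons are rejected, and known near-cognate uORFs control genes of polyamine synthesis and stress signalling.

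The start codons of 2588 kept near-cognate uORFs lay in a RefSeq window around a gene start (GRCh38.p14, 250 bases before to 50 after), and in all 2588 the codon in the table was the codon in the window. The sequences below are genomic and may run past a splice junction, 5′ to 3′, each with 12 bases before the start codon, the start codon in capitals and 15 bases after it. EIF4G2 is a regulator described below, CYCS and RPL39 are among the 10 uORFs with the most footprints, the next is a uORF of RPL41 that was lower in monosomes relative to its coding ORF, AIRIM and UCP2 were near absent from monosomes, the following 4 (and RPL39) fell in polysomes under amino acid starvation when the library letter was modelled, and CNOT4 shows a start directly followed by an in-frame ATG.
EIF4G2 GTG, chr11:10808902-10808931, minus strand: ttagcgccagcaGTGagtcggagctctatg
CYCS GTG, chr7:25125257-25125286, minus strand: gcgcggaccggcGTGtccttggacttagag
RPL39 ATC, chrX:119791591-119791620, minus strand: cctttctccgccATCgtggtgtgttcttga
RPL41 ATT, chr12:56116638-56116667, plus strand: ggccttagcgccATTtttttgggtgagtgt
AIRIM CTG, chr1:37690499-37690528, minus strand: tgcgcagagagaCTGtgggcgcgtggtgca
UCP2 ATT, chr11:73982796-73982825, minus strand: gcgcgccttgggATTgactgtccacgctcg
CWC15 GTG, chr11:94973535-94973564, minus strand: tgggagccaagaGTGgtaatggcgtctgta
SNRPD2 ACG, chr19:45691913-45691942, minus strand: caggcagcagcaACGcggaggaaacgggag
RPL37A CTG, chr2:216498813-216498842, plus strand: ctaataccgcgcCTGcgcaccgcgtctctt
SNRPF TTG, chr12:95858944-95858973, plus strand: tcatagtcctgtTTGgcggccatttctctt
CNOT4 AAG, chr7:135510064-135510093, minus strand: ttaccctaatgtAAGatggtggcccgtctg

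The uORF of RPL39 is complete in its line: 18 nt from ATC to the stop codon tga. Of 2321 near-cognate uORFs in the window of their own gene, 894 (38.5%) began before the RefSeq gene start, among them CYCS and RPL37A above, so these rest on transcripts that begin further upstream than the RefSeq gene. Of 1331 uORFs that lay whole and unspliced in a window, 103 (7.74%) held an in-frame ATG after their start and in 26 it was the second codon, as in CNOT4, a subunit of a deadenylase complex. The lines of EIF4G2 and CWC15 above also hold an in-frame ATG after the GTG. Their footprints cannot be assigned to the GTG start alone, and which codon was used was not tested.

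Both favourable neighbours, a purine at -3 and G at +4, were found around 19.4% of 382 CTG starts, 25.7% of 280 GTG starts and 20.8% of 741 other starts. Among all codons of the same kinds in 34796 windows the shares were 16.4, 19.8 and 14.8%. ATG uORFs had both at 43.6% of 218 starts, against 25.4% of all ATG codons in the windows. These are counts over letters and do not say which codons were used.

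Near-cognate uORFs were short, with a median of 39 nt (quartiles 18 and 66, range 6 to 534), against 30 nt for ATG uORFs. The caller's own support was low. Only 34 kept near-cognate uORFs (0.38%) had a caller p under 1e-4, against 14 of 1350 ATG uORFs (1.04%), and 4144 (46.4%) had a caller p over 0.5, against 30.7% of the ATG uORFs. A called coding ORF overlapped 726 of them (8.12%), which carried 20.4% of their footprints, and 31 overlapped a RefSeq small RNA gene and carried 2.8%. Footprints were concentrated: the 10 highest uORFs held 13.6% and the 100 highest 37.6% of the total, while 2112 had fewer than 10 footprints over all 12 libraries. Of the 4114 genes, 2010 had a single kept near-cognate uORF, 385 had 5 or more and GPBP1L1 had 22. Of 6375 genes with a kept coding ORF, 2582 (40.5%) also had a near-cognate uORF.

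Depth was 354509 to 1204002 footprints on kept ORFs in the monosome libraries and 2477832 to 7683764 in the polysome libraries, and coding ORFs took 23.0 to 47.4% and 56.9 to 69.2% of these. A pair of ORFs exceeded 5% of a library, in the A libraries of log phase and amino acid starvation monosomes, and the tests were also run without those libraries.

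Over all libraries, near-cognate uORFs took a similar mean share of footprints in both fractions. Relative to coding footprints they had a larger amount in monosomes. GTG uORFs were an exception when counted with those that overlap a coding ORF or small RNA gene. Near-cognate uORFs held 1.63 and 4.46% (libraries A and B) of footprints in log phase monosomes, 2.54 and 3.55% after serum starvation and 1.19 and 3.94% after amino acid starvation. In polysomes the shares were 2.09 and 4.13, 2.19 and 3.8, and 1.92 and 2.86% in the same order. The mean was 2.88% ± 1.31 (SD, n = 6) in monosomes and 2.83% ± 0.94 (SD, n = 6) in polysomes, a difference smaller than the spread, and the B library was the higher in all 6 groups.

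Set against coding footprints, near-cognate uORF footprints amounted to 6.80 and 10.0% in log phase monosomes, 7.50 and 9.83% after serum starvation and 5.15 and 8.33% after amino acid starvation. The polysome libraries had 3.03 and 7.25, 3.44 and 6.29, and 3.18 and 4.88%. The monosome library was the higher in 6 of 6 pairs of the same condition and letter, although the ranges of the fractions overlapped (5.15 to 10.0% against 3.03 to 7.25%). ATG uORFs had 1.15 to 2.74% in monosomes and 0.67 to 1.51% in polysomes, and were also higher in monosomes in 6 of 6 pairs. CTG uORFs and those with other start codons were higher in 6 of 6 pairs, but GTG uORFs in 2 of 6. GTG uORFs had 0.838% ± 0.264 (SD, n = 6) of coding footprints in monosomes and 0.838% ± 0.345 (SD, n = 6) in polysomes. These GTG values count uORFs that overlap a coding ORF or small RNA gene, and the pairs were not compared without them. Near-cognate starts held 76.2 to 82.5% of all uORF footprints in the monosome libraries and 80.7 to 85.4% in the polysome libraries.

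**Figure D1:**
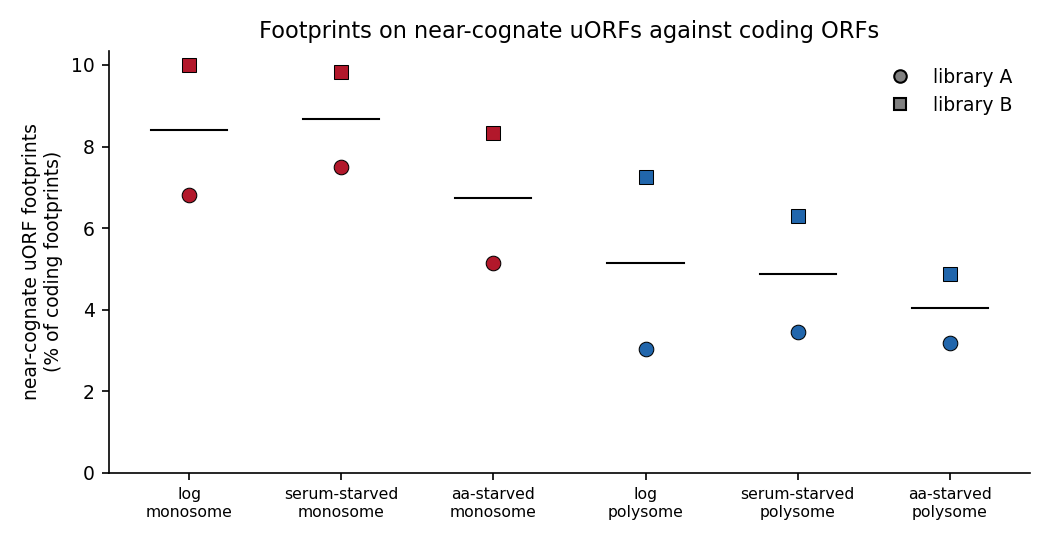
Footprints on near-cognate uORFs as a percentage of coding footprints (y axis) in the 6 groups of condition and fraction (x axis). Circles and squares are the A and B libraries, bars the mean of a group, and monosome libraries are red. Monosome libraries lie between 5.15 and 10.0%, polysome libraries between 3.03 and 7.25%, and B lies above A in every group.

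The classes of start codon were not shared equally between the fractions. GTG uORFs held 12.4 and 11.3% of near-cognate footprints in log phase monosomes, 11.6 and 11% after serum starvation, and 8.16 and 8.14% after amino acid starvation. In polysomes they held 18.3 and 18.5, 17.8 and 18.9, and 17.2 and 16.1%. All 6 polysome libraries (17.8% ± 0.984, SD) lay above all 6 monosome libraries (10.4% ± 1.83). Without the 3 highest GTG uORFs the ranges were 7.69 to 11.8% and 12.7 to 16.7% and still did not overlap. Without uORFs that overlap a coding ORF or small RNA gene they were 8.62 to 15.4% and 13.9 to 17.2%, and they overlapped. CTG uORFs had 20.9 to 33.5% in monosomes and 18.6 to 25.1% in polysomes. Serum starvation monosomes were highest for CTG (33.5 and 31.2%). These CTG shares count overlapping uORFs, among them that of WDR74 over a small RNA gene, and were not computed without them.

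**Figure D2:**
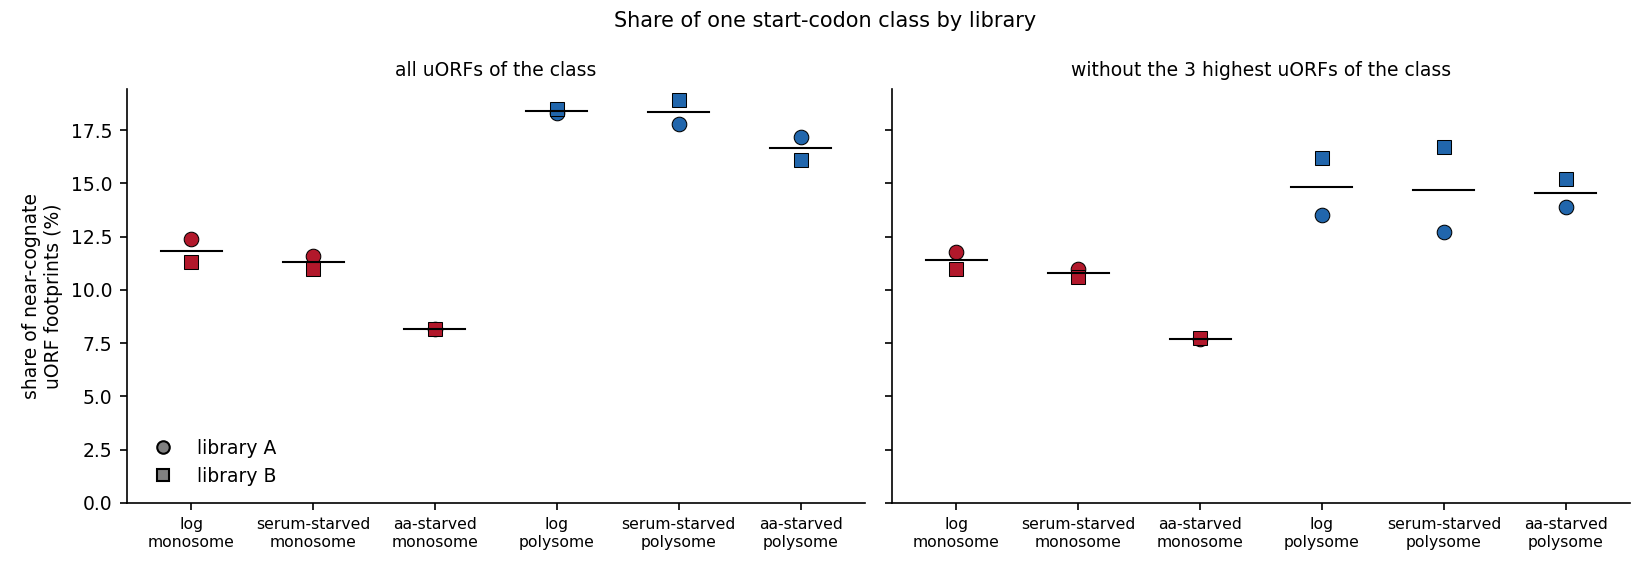
Share of near-cognate uORF footprints in uORFs with a GTG start (y axis, percent) by group (x axis), for all of them (left) and without the 3 with the most footprints (right). Circles and squares are the A and B libraries and bars the mean of a group. The polysome libraries (16.1 to 18.9% at left) lie above the monosome libraries (8.14 to 12.4%), which are lowest after amino acid starvation.

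The near-cognate uORF with the most footprints was an AAG uORF of RPS15, a protein of the small ribosomal subunit, with 20711 in all. It is 12 nt long, and all 12 nt also lie in a called coding ORF, so its footprints cannot be assigned to the uORF alone. A CTG uORF of WDR74 (chr11:62841591-62841749, minus strand) came next with 18069. WDR74 is a factor of ribosome assembly, and this uORF overlaps RNU2-2, a gene of the U2 spliceosomal RNA. A CTG uORF of 24 nt was listed with the same 12 values at 2 places on chromosome 21, under ENSG00000234289 and LOC102724334, and counts as a single measurement of 15485 footprints. In all, 27 of 2855 kept near-cognate uORFs with over 50 footprints shared their 12 values with another place. The highest GTG uORF, with 15413 footprints, lies wholly in a called coding ORF of the locus ENSG00000189159_ENSG00000188612. Those without such an overlap included RPL39 (10999 footprints), NCAPD3 (9750 and 8961) and PNRC2 (6731).

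Monosomes and polysomes were compared over the 3 conditions with edgeR's quasi-likelihood test on counts scaled by TMM, with levels given in CPM, counts scaled by TMM to a common library total. Of the 1788 near-cognate uORFs, 221 were higher and 399 lower in monosomes at an adjusted p under 0.05, or 34.7%. Of all 26467 ORFs tested, 39.5% passed (16.7% higher, 22.8% lower), so the share among near-cognate uORFs lay near the background. The median log2 ratio of monosome over polysome was -0.79 for near-cognate uORFs, -0.17 for ATG uORFs, -0.83 for coding ORFs and -0.48 for all ORFs. By class, 45 higher and 80 lower were CTG (median -0.77), 35 and 76 GTG (median -1.01) and 141 and 243 other starts (median -0.76). With the letter as a replicate block, 310 were higher and 649 lower (53.6%, background 54.5%, with 22.5% higher and 32.1% lower). The median over all ORFs moved to -0.35 under RLE scaling and to -0.66 under library-size scaling, so directions are relative to the scaling used.

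Groups that do not overlap were a condition for naming uORFs by size in a comparison. For uORFs named so, non-overlap is therefore not separate support. Among near-cognate uORFs higher in monosomes were those of MAP3K13, a kinase upstream of JNK. The highest of these, a CTG uORF of 36 nt (chr3:185285529-185285564, plus strand), had 374 and 343 CPM in log phase monosomes, 326 and 95.6 after serum starvation and 171 and 101 after amino acid starvation. The polysome libraries had 11.1 and 9.25, 19.2 and 5.75, and 11.1 and 5.28 CPM. The lowest monosome library was thus well above the highest polysome library (log2 ratio 4.42, SE 0.502, adjusted p = 2.33e-05). It overlaps a TTG uORF of the same gene that was also higher in monosomes (5.34, SE 0.631, adjusted p = 3.03e-05). Over all monosome libraries the CTG uORF had 99.1% of the footprints on it and the gene's coding ORFs together, and 88.5% in polysomes.

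A CTG uORF of CCNB1IP1, a ubiquitin ligase that binds cyclin B1, had 65.8, 44.8, 673, 48.1, 19.7 and 25.8 CPM in the monosome libraries (log phase, serum and amino acid starvation, A then B). In the polysome libraries it had 4.68, 2.74, 4.00, 2.52, 2.31 and 0.665 CPM. The groups did not overlap, and the A library of serum starvation (673 CPM) stood far above the other monosome libraries. The log2 ratio was 4.88 (SE 0.628, adjusted p = 6.24e-05).

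A GTG uORF of 9 nt in FUNDC2, a protein of the outer mitochondrial membrane, had 388, 110, 91.8, 32.5, 110 and 41.6 CPM in monosomes and 28.8, 2.32, 15.8, 2.85, 10.3 and 0.628 CPM in polysomes. Its groups did not overlap, and A exceeded B in every group (log2 ratio 3.53, SE 0.769, adjusted p = 0.00304). The CTG uORF of WDR74 over RNU2-2 had 1950 to 5080 CPM in monosomes and 66.1 to 262 in polysomes (4.53, SE 0.573, adjusted p = 5.51e-05). The 3 other WDR74 uORFs over RNU2-2 among the named uORFs were higher in monosomes as well, with log2 ratios of 4.03 to 4.60, and the part of the small RNA in this was not tested. Others were uORFs of POLR2I, a subunit of RNA polymerase II (AAG, 4.29, SE 0.518), FBXL5, an iron-sensing ubiquitin ligase subunit (AGG, 5.06, SE 0.797), and LSM5 of the Lsm ring (TTG, 4.40, SE 0.658, within a coding ORF). Their adjusted p-values by edgeR were 3.64e-05, 0.000334 and 0.000223.

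Near-cognate uORFs that were higher in polysomes included those of several known regulators. Not all genes chosen for known uORFs went this way. An ATT and a GTG uORF of PABPC1 were higher in monosomes (log2 ratios 4.52 and 4.31, edgeR adjusted p = 0.00089 and 0.00533), as was a uORF of ATF4 described below. Both PABPC1 calls were lost without the B library of serum starvation monosomes. The GTG uORF of EIF4G2, a translation initiation factor of the eIF4G family (66 nt, chr11:10808854-10808919, minus strand), had 43.7, 32.8, 29.2, 16.8, 24.9 and 13.7 CPM in monosomes. In polysomes it had 199, 233, 211, 215, 198 and 97.2 CPM, and the groups did not overlap. The log2 ratio was -2.90 (SE 0.405, adjusted p = 0.000126). The other 3 tested GTG uORFs of EIF4G2 were lower in monosomes too where they passed (-2.76, adjusted p = 0.00461, and -1.77, adjusted p = 0.0457), and the one with the fewest footprints did not (adjusted p = 0.0535, and 0.0119 with the block). The call at -1.77 was lost when any of 6 libraries was left out, the B library of any monosome group or the A library of any polysome group (adjusted p of 0.0634 to 0.141), and with RLE scaling (adjusted p = 0.0656). Coding footprints of EIF4G2 had 173 to 395 CPM in monosomes and 827 to 1360 in polysomes, and the change of the 66 nt uORF relative to them did not pass (-0.92, SE 0.453, adjusted p = 0.245).

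PPP1R15B encodes a subunit of the phosphatase that reverses eIF2α phosphorylation. Its AAG uORF of 18 nt had 8.92, 6.10, 0.913, 5.62, 5.84 and 6.36 CPM in monosomes and 42.3, 25.9, 46.0, 33.2, 41.4 and 34.9 in polysomes (log2 ratio -2.79, SE 0.511, adjusted p = 0.00101). Its CTG uORF of 75 nt had 0.228 to 12.4 CPM in monosomes and 19.0 to 52.5 in polysomes (-2.19, SE 0.567, adjusted p = 0.00806). Groups did not overlap for either. In polysomes these uORFs held 97.0 and 96.4% of the footprints on them and the coding ORFs of the gene, each taken alone, since coding ORFs had at most 2.93 CPM in any polysome library. The call for the CTG uORF was lost without the dominated monosome libraries (adjusted p = 0.0518).

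AZIN1, the antizyme inhibitor, promotes polyamine synthesis and is known for a conserved uORF with a non-ATG start. An ATT uORF of 159 nt had 2.45, 1.58, 2.28, 0.788, 1.84 and 5.21 CPM in monosomes and 21.4, 14.8, 21.1, 16.6, 12.5 and 19.6 in polysomes. Its groups did not overlap (log2 ratio -3.04, SE 0.53, adjusted p = 0.000713). A TTG uORF that lies in the same stretch was lower in monosomes by a similar ratio (-3.19, SE 0.647, adjusted p = 0.00196). No coding ORF of AZIN1 was kept, so neither can be set against it.

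The GTG uORF of CYCS, cytochrome c, had 3.20 to 43.6 CPM in monosomes and 83 to 623 in polysomes (-3.47, SE 0.672, adjusted p = 0.00148), and overlaps a coding ORF by 16 of its 69 nt. The ATC uORF of RPL39 had 20.6 to 165 CPM in monosomes and 50.3 to 583 in polysomes, and its groups overlapped (-1.88, SE 0.413, adjusted p = 0.00315). A spliced AGG uORF of PNRC2, a factor of mRNA decay, had 26.7 to 123 and 107 to 362 CPM (-2.15, SE 0.472, adjusted p = 0.00312). The lowest levels in monosomes are those of uORFs with 3 or fewer footprints there, for which no ratio is given. AIRIM had 0 to 0.197 CPM in monosomes and 4.10 to 13.1 in polysomes, UCP2, a mitochondrial carrier (ATT), 0 to 0.678 and 2.68 to 11.2, AGGF1, an angiogenic factor, 0 to 0.565 and 4.00 to 9.95, and PPIL1, a spliceosomal isomerase, 0 to 0.565 and 4.95 to 9.99. Their adjusted p-values by edgeR were 0.00136, 0.00349, 0.00225 and 0.00144.

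**Figure D3:**
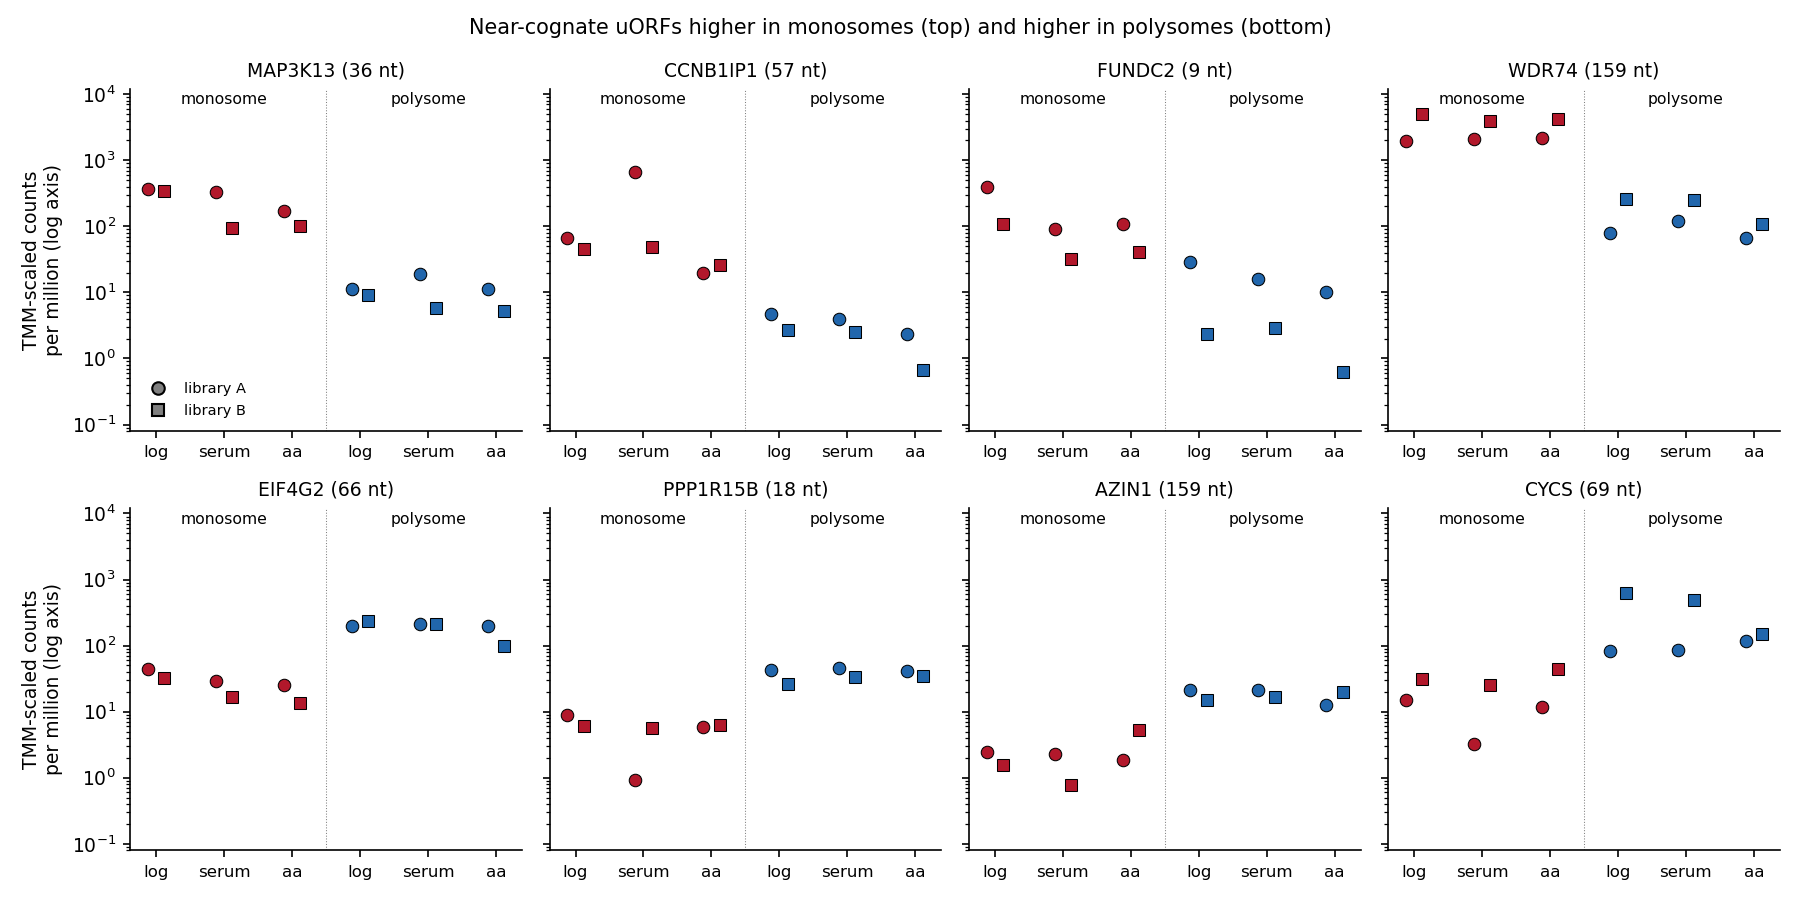
Levels of 8 near-cognate uORFs in every library, in TMM-scaled CPM on a log axis, with the 3 monosome groups left of the dotted line and the 3 polysome groups right of it. Circles and squares are the A and B libraries. In the top row every monosome library lies above every polysome library (MAP3K13, 95.6 CPM and more against at most 19.2), and in the bottom row the order is the opposite (EIF4G2, at most 43.7 CPM against 97.2 and more). For uORFs named by size in a comparison, non-overlap was a condition.

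For some uORFs with high counts, a single letter carried the level. The ATT uORF of NCAPD3, a subunit of condensin II, had 2960, 1810 and 3850 CPM in the B monosome libraries but 22.9, 0 and 89.1 in A, and 363 CPM in the B library of serum starvation polysomes against at most 1.36 in the other polysome libraries. Its call (log2 ratio 8.07, SE 1.77, adjusted p = 0.00317) was lost without the B library of serum starvation monosomes (adjusted p = 1.0). The AGG uORF of GNAS, the stimulatory G protein α subunit, was high in the A libraries of log phase and amino acid starvation monosomes only (3960 and 4550 CPM, against 2.51 to 35.9 in the other monosome libraries and 1.91 to 8.88 in polysomes). Both A libraries are the dominated ones. The part of the letter in these levels was not tested.

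Within single conditions fewer calls were made without the block. In log phase, 61 near-cognate uORFs were higher and 20 lower in monosomes, or 4.53% (background 6.78% of all ORFs, with 4.99% higher and 1.79% lower). Serum starvation gave 49 and 37, or 4.81% (background 6.73%, with 4.59 and 2.13%). Amino acid starvation gave 21 and 9, or 1.68% (background 3.35%, with 3.01 and 0.34%). With the block the counts were 247 and 188 in log phase (background 26.8%, with 14.9 and 11.9%). They were 180 and 274 after serum starvation (background 29.6%, with 15.6 and 14.0%) and 129 and 106 after amino acid starvation (background 18.4%, with 11.1 and 7.31%). With the block 24.3, 25.4 and 13.1% were called in either direction, so all 6 shares lay below the background. Under library-size scaling the split was 10 higher and 8 lower, 18 and 5, and 0 and 1 in the 3 conditions, and RLE scaling gave 67.5% of the serum starvation calls higher, against 57.0% under TMM.

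These counts rested on single libraries. In log phase, 10 and 18 were called without the A or B monosome library, 19 and 43 without the A or B polysome library, and 46 and 47 without the A or B monosome library of amino acid starvation. In serum starvation, 6 and 26 were called without its A or B monosome library, 12 and 54 without its A or B polysome library, 51, 52 and 46 without log phase monosome B or amino acid starvation monosome A or B, and 134 and 140 without log phase polysome A or B. In amino acid starvation, 1 and 5 were called without its monosome libraries, 0 without either of its polysome libraries, 19 without log phase monosome A, and 46 and 49 without the log phase polysome libraries. Without both dominated libraries, 1, 11 and 0 were called. MAP3K13 (TTG, log2 ratios with the block of 5.94 and 5.86) was among the 10 with the largest ratios in log phase and serum starvation, and CCNB1IP1 (6.34) in serum starvation. Without the block, the serum starvation call was lost if its A monosome library was left out, for CCNB1IP1 (adjusted p = 0.0684) and for MAP3K13 (adjusted p = 0.0842), and the log phase call of MAP3K13 was lost without the dominated libraries (adjusted p = 0.0838).

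To set a uORF against its own gene, footprints per nucleotide were compared in the summed polysome libraries for the 5180 near-cognate uORFs whose gene had at least 50 coding footprints. The median log2 ratio of uORF over coding density was -1.45 (quartiles -2.91 and -0.09), and 1227 uORFs (23.7%) were denser than their coding ORFs. CTG, GTG and other starts had medians of -1.50, -1.35 and -1.46. ATG uORFs had a median of -0.45, and 42.0% of 703 were denser than their coding ORFs. Near-cognate uORFs had more footprints than the coding ORFs in 83 cases. ORFs enter the table only where the caller found footprints, and many coding ORFs in it are fragments, so these densities describe called uORFs only. Among those named here the log2 density over coding was 2.97 for EIF4G2 (66 nt), 3.72 for RPL39, 0.72 for CYCS and 7.74 for the AAG uORF of PPP1R15B.

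**Figure D4:**
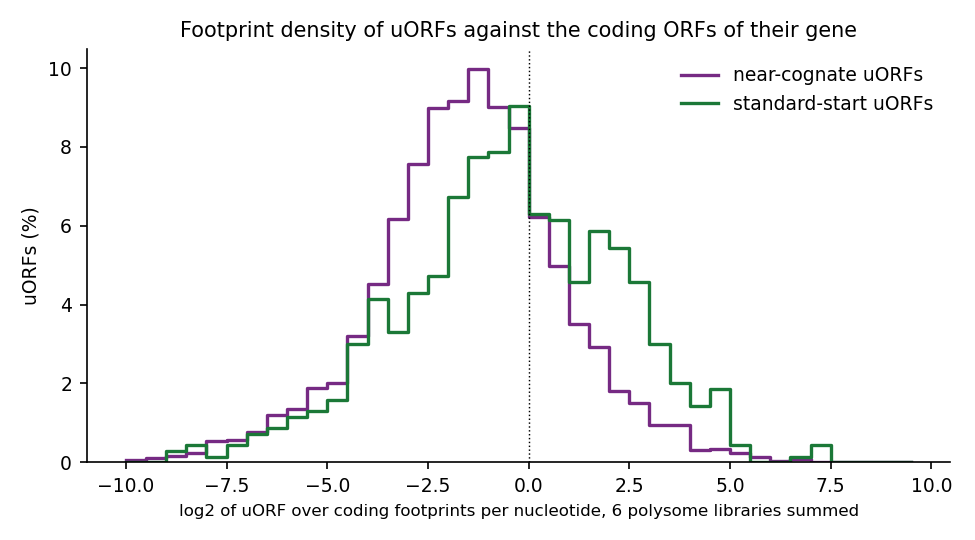
Distribution of the log2 ratio of footprints per nucleotide on a uORF over those on the coding ORFs of its gene, in the summed polysome libraries (x axis, bins of 0.5; y axis, percent of uORFs). Near-cognate uORFs are purple and uORFs with an ATG start green. The medians are -1.45 and -0.45, and 23.7 and 42.0% lie right of the dotted line at equal density.

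In a fit that compares each uORF with the coding ORFs of its gene in the same library, 1366 near-cognate uORFs could be tested. Relative to the coding ORFs, 112 were higher and 37 lower in monosomes (10.9%, edgeR, Benjamini-Hochberg adjusted p under 0.05), against 8.33% of 15526 non-coding ORFs (7.16% higher, 1.17% lower). With the block it was 193 and 119 (22.8%, background 16.8%, with 13.2% higher and 3.54% lower). The median log2 change was 0.19, against 0.28 for all non-coding ORFs. Its sign rested on single libraries: it was -0.34 (all non-coding ORFs 0.01) without the B library of amino acid starvation monosomes, -0.19 (0.27) without that of serum starvation and -0.02 (0.12) without that of log phase. With 50 counts in 2 libraries it was -0.03 (0.07), and limma on log2 ratios gave 0.58 (0.58). The count of 149 was 59 without the B library of amino acid starvation monosomes, 76 without the B library of log phase monosomes, 91 without the A library of amino acid starvation monosomes and 52 without both dominated libraries.

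The CTG uORF of CCNB1IP1 held 58.2 to 98.5% of the footprints on it and its coding ORFs in the monosome libraries and 7.0 to 25.2% in the polysome libraries. Its change relative to coding was 4.12 (SE 0.778, edgeR adjusted p = 0.00748), and its call was lost without the dominated libraries (adjusted p = 0.0662). For FUNDC2 the shares were 52.6 to 88.1% and 4.40 to 23.2% (4.27, SE 0.577, edgeR adjusted p = 0.00146). Neither overlapped between fractions, which was a condition for naming uORFs in this fit.

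The lowest ratios relative to coding among those described were in RPL41, a very short protein of the large ribosomal subunit. Its ATT uORF of 60 nt had 22.4 to 50.1 CPM in monosomes and 45.6 to 116 in polysomes, with some overlap. Its coding ORF had 146 to 1260 CPM in monosomes and 2.77 to 17.0 in polysomes. The uORF thus held 1.74 to 24% of the footprints on both in monosomes and 82.2 to 97.7% in polysomes (-7.11, SE 0.528, edgeR adjusted p = 4.82e-05). A CTG uORF of 6 nt (-7.72, SE 0.592, adjusted p = 5.24e-05), an ATA uORF (-5.66, SE 0.946, adjusted p = 0.00409) and the ATT uORF shown above (-4.73, SE 0.993, adjusted p = 0.0128) were lower against the same coding ORF and so are not separate measurements of it. The calls of the ATA uORF and the ATT uORF shown above were lost without the dominated libraries (adjusted p = 0.0518 and 0.0923). By its own level neither was called lower in monosomes. The ATA uORF had 2.76 to 27.6 CPM in monosomes and 3.24 to 39.8 in polysomes (log2 ratio -0.12, adjusted p = 0.884). The ATT uORF shown above had 30.4 to 361 and 28.7 to 115 CPM (1.2, adjusted p = 0.115, and 0.0303 with the block). Others that were lower relative to coding were uORFs of UBE2D3, a ubiquitin-conjugating enzyme (ATC, -6.08, SE 1.02, adjusted p = 0.00629), and CIAO2A, which acts in iron-sulfur cluster assembly (CTG, -4.96, SE 0.808, adjusted p = 0.00441). RPL39 also passed (-2.78, SE 0.627, adjusted p = 0.0181), all by edgeR.

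Gene lists were followed, beside a median log2 ratio of monosome over polysome of -0.79 for all near-cognate uORFs and a background of 39.5% of all ORFs called. Of 20 genes of the integrated stress response, which slows initiation by phosphorylating eIF2α, 7 had a kept near-cognate uORF and 6 uORFs in 3 genes were tested (median -2.49). Lower in monosomes were PPP1R15B (both) and an AAG uORF of IFRD1 (-3.00, SE 1.07, adjusted p = 0.0388), and higher was an AGG uORF of ATF4, the transcription factor that this response induces (2.61, SE 0.678, adjusted p = 0.00828). The ATF4 uORF had only 22.2 footprints summed over monosome and 30.3 over polysome libraries. Its groups overlapped (1.37 to 11.4 and 0.208 to 1.79 CPM). The IFRD1 call was lost by leaving out any of 5 libraries (adjusted p up to 0.103), and the ATF4 call without the B library of serum starvation monosomes (adjusted p = 0.0872) or without the dominated libraries (0.0846). The remaining 2, both ATC uORFs of IFRD1, did not pass, and with the block 1 of them was lower in monosomes (adjusted p = 0.0231).

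Of 21 factors of start codon selection, 12 had a near-cognate uORF and 11 uORFs were tested (median -1.55). The 4 lower ones were the 3 of EIF4G2 and an ATC uORF of BZW2, an eIF5 mimic (0 to 0.964 CPM in monosomes, 1.55 to 8.92 in polysomes, adjusted p = 0.00979). An ATA uORF of BZW1, its paralog, was higher in monosomes (4.35, SE 0.839, adjusted p = 0.00144). The CTG uORF of EIF5, 240 nt long, had 4.61 to 12.6 CPM in monosomes and 10.5 to 30.5 in polysomes and lay at the threshold (adjusted p = 0.0517, and 0.014 with the block). The AGG uORF of EIF2S3 passed with the block only (adjusted p = 0.0342, against 0.0891), and the ATT uORF of EIF1AX did not pass (adjusted p = 0.846). Of 10 polyamine genes, 5 had a near-cognate uORF and 9 uORFs were tested (median -1.61), with 3 of AZIN1 and 1 of the antizyme OAZ2 lower in monosomes and none higher. The 3 uORFs of ODC1, ornithine decarboxylase, and that of AMD1 did not pass, and a GTG uORF of AZIN1 passed with the block only (adjusted p = 0.0413, against 0.313).

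Of 80 cytosolic ribosomal protein genes, 60 had near-cognate uORFs, 127 in all with 11.3% of near-cognate footprints, and 26 of the 127 overlap a coding ORF. Of the 63 tested, 10 were higher and 12 lower in monosomes (median -0.74), near the background of 39.5% of all ORFs. Lower were a CTG uORF of FAU (9 nt, 0.685 to 9.83 CPM in monosomes, 43.2 to 231 in polysomes, log2 ratio -5.33, SE 0.679, adjusted p = 5.89e-05) and an AGG uORF of RPS14 (-2.59, SE 0.46, adjusted p = 0.000813). Higher were an AGG uORF of RPLP1 (4.67, SE 0.876, adjusted p = 0.0012) and a GTG uORF of RPL26 (2.78, SE 0.424, adjusted p = 0.000259), all by edgeR. That of RPLP1 had 6.62 to 2740 CPM in monosomes and 11.5 to 95.2 in polysomes, so its groups overlapped. These 4 uORFs were picked after their values were seen. With the block 18 were higher and 23 lower, where 54.5% of all ORFs passed.

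Amino acid starvation was compared with log phase within each fraction. Without the block, edgeR called 0 of 1788 near-cognate uORFs in polysomes (79 at an unadjusted p under 0.05, 3 called by DESeq2) and 0 in monosomes (73 unadjusted, 0 by DESeq2), with a background of 0.0% in both. With the block 19 passed in polysomes, 2 higher and 17 lower under starvation, or 1.06% against a background of 1.62% (0.378% higher, 1.24% lower), and 0 in monosomes (140 unadjusted, background 0.0%). With the block and without a library of the compared groups, 5 (A of amino acid starvation), 7 (B of amino acid starvation), 8 (A of log phase) and 17 (B of log phase) passed, and without any other library 39 to 90. In the same order 0, 6, 0 and 4 of these were higher and 5, 1, 8 and 13 lower, so the split turned without the B library of amino acid starvation. The median in polysomes without the block was -0.30 for near-cognate uORFs and -0.01 for all ORFs. It was 0.11 (all ORFs 0.18) without the B library of log phase polysomes, -0.54 (-0.19) without that of amino acid starvation and -0.13 (0.16) under RLE scaling, so its sign rested on single libraries. In monosomes the median was -0.61 (all ORFs -0.07) without the block and -0.64 (-0.09) with it.

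Of the 17 that fell with the block, 6 were in ribosomal protein genes. The ATC uORF of RPL39 had 563 and 530 CPM in log phase polysomes and 50.3 and 60.9 under amino acid starvation (log2 change with the block -3.26, SE 0.598, adjusted p = 0.0113). Its groups did not overlap, and the serum starvation libraries had 583 and 239. Its coding ORF went from 368 and 35.5 to 31.2 and 15.8 CPM. A GTG uORF of CWC15, a spliceosome component, went from 65.9 and 55.4 to 5.55 and 9.66 CPM (-3.02, SE 0.581, adjusted p = 0.0131), and its coding ORFs from 778 and 323 to 245 and 179. The ACG uORF of SNRPD2, an Sm core protein, went from 42.2 and 161 to 10.7 and 11.8 CPM (-2.89, SE 0.591, adjusted p = 0.0175), and its coding ORFs from 3740 and 1220 to 642 and 330. A TTG uORF of SNRPF, another Sm protein, went from 124 and 89.8 to 24.2 and 26.1 CPM (-2.11, SE 0.53, adjusted p = 0.0382).

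Other ribosomal protein uORFs that fell with the block were those of RPS3A (TTG, -3.73), RPS20 (TTG, -3.71), RPL38 (GTG, -2.83) and RPL37A (CTG, -2.73). Their adjusted p-values were 0.0166, 0.0261, 0.0266 and 0.0485, in that order. The uORF of RPL38 overlaps a coding ORF by 13 nt. That of RPS3A is 12 nt long and lies wholly in a coding ORF, so its fall cannot be assigned to the uORF alone. The uORFs of UQCR10, a subunit of respiratory complex III (GTG, -2.54, adjusted p = 0.0314), and COX6B1, a subunit of cytochrome c oxidase (CTG, -2.28, adjusted p = 0.048), fell as well, all by edgeR. SNRPF, UQCR10 and COX6B1 lie outside the 10 largest falls and were named after their values were seen. The ACG uORF of JUN, an immediate early transcription factor, rose from 2.41 and 3.08 to 13.3 and 17.8 CPM (2.5, SE 0.614, adjusted p = 0.0355), and its coding ORF had 19.6 and 30.2 CPM in log phase and 68.0 and 180 under starvation. The other that passed, in DNAJC22, had footprints in 1 of the 4 libraries compared (9.59 CPM).

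**Figure D5:**
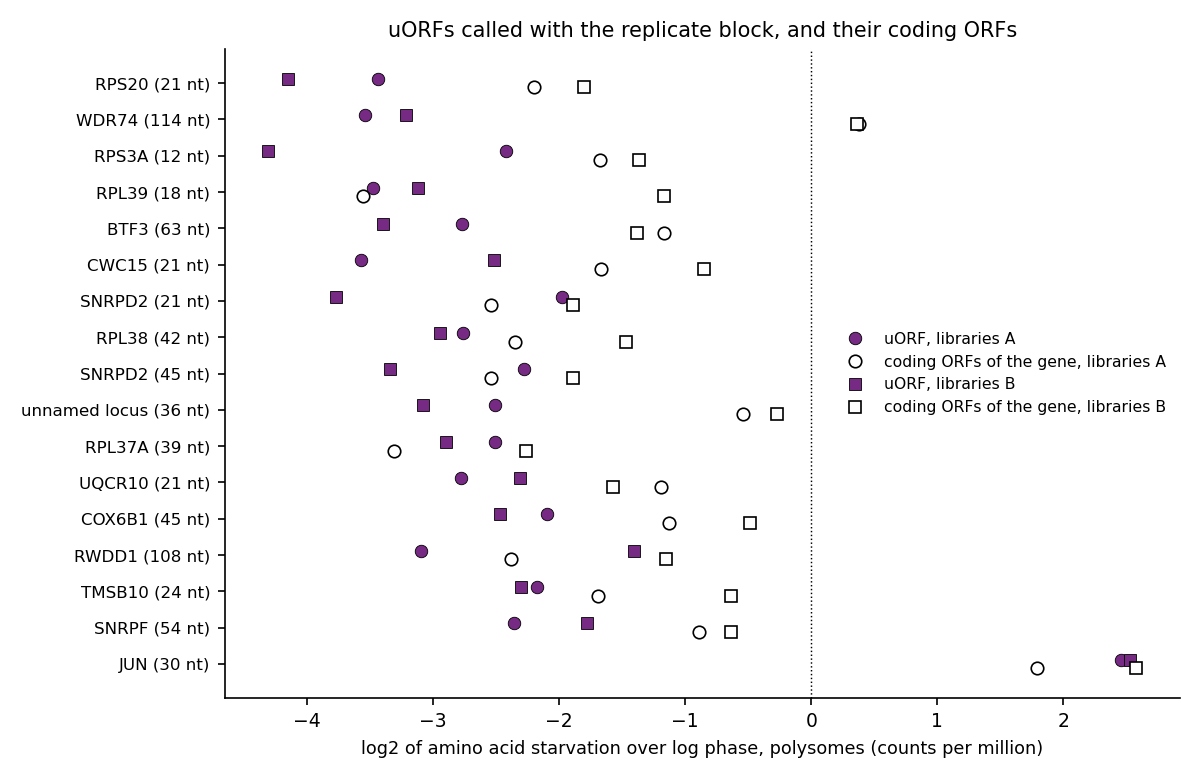
Log2 of amino acid starvation over log phase in polysomes (x axis, from CPM) for 17 near-cognate uORFs that passed with the block and have coding ORFs (rows, gene and uORF length). Filled symbols are the uORF and open symbols the coding ORFs of its gene, circles from the A and squares from the B libraries. In 16 rows the uORF is below 0 for both letters, and in 15 of the 17 the coding ORFs are too, while JUN lies above 0.

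In these comparisons the coding ORFs of the gene lay on the same side of 0 for both letters, except for the ATC uORF of WDR74, whose coding ORFs had 81.6 and 51.2 CPM in log phase and 106 and 65.5 under starvation. Relative to the coding ORFs, no near-cognate uORF of 1366 passed under amino acid starvation in polysomes, without the block (13 unadjusted) or with it (85 unadjusted), and none by limma on log2 ratios. The background was 0.0% without and 0.0193% with the block (97 and 372 of 15526 non-coding ORFs unadjusted). The median change of near-cognate uORFs relative to coding was -0.28 (all non-coding ORFs 0.04), and -0.35 (0.02) with the block. Of the 17 uORFs plotted, which were picked by their own change, 12 fell more than their coding ORFs for both letters and the others did not. The 63 tested ribosomal protein uORFs had a median of -1.21 under amino acid starvation in polysomes, with 6 lower and 0 higher with the block, and relative to coding their median was 0.27 with 0 called (0.23 with the block). For the other 3 lists 0 uORFs were called in this comparison, with or without the block, and their medians were 0.55 (stress response), -0.35 (start codon selection) and -0.17 (polyamines).

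Serum starvation gave no call against log phase. EdgeR called 0 near-cognate uORFs in polysomes (10 unadjusted, 37 with the block) and 0 in monosomes (84 unadjusted, 180 with the block), with or without the block, and DESeq2 0 in both. The background was 0.0% in both without the block, and 0.0% in polysomes and 0.034% in monosomes with it (0.0113% higher, 0.0227% lower). The median was -0.11 in polysomes (all ORFs 0.04), but 0.32 (0.28) without the B library of log phase polysomes and -0.39 (-0.12) without that of serum starvation. In monosomes it was -0.38 (0.08), but 0.19 (0.74) under library-size scaling and -1.67 (-0.47) without the B library of serum starvation. That last fit also tested more uORFs (3125 instead of 1788). Relative to coding, 0 passed in polysomes by edgeR (2 unadjusted, 11 with the block) and by limma. Serum and amino acid starvation are compared with the same log phase libraries.

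The 34 kept near-cognate uORFs with a caller p under 1e-4 were looked at after their values were seen. They held 0.00706 to 0.0169% of the footprints in monosomes and 0.0127 to 0.0192% in polysomes, with the monosome library higher in 2 of 6 pairs. Against coding footprints they had 0.0307 to 0.0455% and 0.0218 to 0.0307%, higher in monosomes in 5 of 6 pairs, so the order of the fractions depended on the denominator. A CTG uORF of PRR14, a protein of the nuclear lamina, had the best caller p among those tested (4.83e-06), with 2.28 to 55.4 CPM in monosomes and 3.63 to 24.8 in polysomes. An ACG uORF of FBXO5, an inhibitor of the anaphase-promoting complex, had 21.3 to 79.0 and 18.1 to 68.2 CPM and held 39.0% of the footprints on it and its coding ORFs in monosomes and 31.6% in polysomes. Neither differed between fractions at this depth (adjusted p = 0.999 and 0.842 by edgeR). Lower in monosomes were a TTG uORF of SLC7A1, a transporter of cationic amino acids (6.55 and 1.48 CPM in 2 monosome libraries, 0 in the others, 5.46 to 10.6 in polysomes, -3.79, SE 1.06, adjusted p = 0.0127), and an AAG uORF of POT1, a telomere protein (-2.02, SE 0.619, adjusted p = 0.0193). The uORF of POT1 had 6.10 to 13.7 CPM in polysomes and held 87.7% of the footprints on it and the coding ORFs there. Its call was lost without the dominated libraries (adjusted p = 0.0779) and with a filter of 50 counts in 2 libraries (adjusted p = 0.107). Between amino acid starvation and log phase polysomes, SLC7A1 had 10.6 and 7.40 against 10.6 and 8.05 CPM (adjusted p = 0.983 with the block).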

How the data were processed

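Per the labels, ribosome footprints were sequenced with 14 PCR cycles and reads of 75 nt. The submitters' processing notes list Bowtie 1.0 and hg38. The authors deposited 1 table of ORFs with an expected count per ORF and library, named after the caller PRICE, and a p-value per ORF that pools all libraries. How the caller was run is not given in the sources used here. The near-cognate uORFs and gene lists were chosen with earlier results of these data known.

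Each codon was counted once, coding ORFs (CDS, Trunc, Variant) first and higher totals next. Expected counts were rounded and fitted for all kept ORFs with edgeR 4.0.16 (R 4.3.3; filterByExpr, minimum count 10 and minimum total 15; TMM; quasi-likelihood tests, two-sided, Benjamini-Hochberg over all 26467 ORFs, threshold 0.05) over 6 groups and 12 libraries. The comparison with coding ORFs used their summed counts as a second set of columns. The fits were tested on simulated data. Gene names came from RefSeq by position: 3986 of 4302 genes were named, 234 lay in several genes and 82 in none.

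Named were the 10 highest uORFs and the 3 highest of each class, genes chosen for known uORFs, and the lists. Up to 10 per direction and comparison were also named by size among those called, with the block where it called more. Only uORFs whose groups did not overlap, with a mean of at least 10 footprints in the higher group, could be named by size. The letters pair the libraries: B minus A deviations correlated in all 15 pairs of groups (r of 0.212 to 0.761), though no label ties a letter to a culture. Alternatives were the block, DESeq2 1.42.0, limma 3.58.1 on log2 ratios (pseudocount 0.5), other scalings and filters, ORFs as deposited and left-out libraries. Counting limits the monosome values most. A uORF that passed under amino acid starvation is not reported here by name and is left out of the plot of that comparison.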

Additional observations from a re-analysis of the deposited data

How the results depend on the processing

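Of 1788 near-cognate uORFs, the count called between monosomes and polysomes over 3 conditions was 620. It was 959 with the replicate block, 1419 with no low-count filter (204 higher, 1215 lower, over more ORFs) and 179 with 50 counts in 2 libraries (fewer ORFs), and 484 to 789 over the leave-one-out fits. In log phase the count of 81 became 435 with the replicate block, 18 with library-size scaling, 155 with DESeq2, 142 with no filter, 30 with the stricter filter, 134 with all ORFs as deposited, 126 with the compared groups alone and 1 without the dominated monosome libraries, and 10 to 116 leaving out 1 library. In serum starvation 86 became 454, 23, 148, 225, 21, 153, 55 and 11 in the same order, and 6 to 140. In amino acid starvation 30 became 235, 1, 83, 47 and 17 up to the stricter filter, 75 with the compared groups alone and 0 without the dominated libraries, and 0 to 49. Relative to coding, 149 became 312 with the replicate block, 291 with limma, 55 with the stricter filter, 46 with CDS-type ORFs alone and 52 without the dominated libraries, and 59 to 173.

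Against log phase, amino acid starvation in polysomes went from 0 to 19 with the replicate block (with the block and 1 library left out, 8 and 17 without log phase polysome A and B, 5 and 7 without amino acid starvation polysome A and B, and 39, 52, 90, 81, 45, 53, 80 and 81 without the others), 3 with DESeq2 and 3 with no filter. Serum starvation went from 0 to 2 in polysomes and to 6 in monosomes with no filter. The other alternatives of the starvation comparisons kept 0 calls. The monosome minus polysome share was 0.0533 percentage points, 3.26 with coding footprints as denominator, and -0.262 to 0.392 leaving out 1 library. None of the called uORFs that were followed over the settings changed direction, in the comparison they were followed for and the settings that tested them. Uncalled uORFs and some members of the gene lists were not followed. Leaving out the dominated libraries, the overlapping uORFs, the 3 highest GTG uORFs, or 1 library with the block was chosen after seeing the data. Over 3 conditions the compared groups alone are all groups, so this gave no separate fit. Causes were not tested. Monosome libraries, with as few as 354509 footprints, limit what can be seen: no ratio is given where 3 or fewer footprints were counted.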
